A study of Mus musculus with 9 samples.

Results

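Genes for protein folding were followed across 3 treatment groups of MH-S, a cell line of mouse alveolar macrophages. Genes were taken by symbol: the J-domain families Dnaja, Dnajb and Dnajc, the heat shock symbols beginning with Hspa, Hspb, Hspd, Hspe, Hsph or Hsp90, the subunits of the cytosolic chaperonin (Cct2 to Cct8 and Tcp1), the protein disulfide isomerases named Pdia, and Calr, Canx, Hsf1, Xbp1, Atf6, Ern1, Eif2ak3, Hyou1 and Sdf2l1. The choice gave 88 of the 14771 genes in the deposited table, and 80 of them had enough reads to enter the test with 11281 genes in all. The other 8 members (Cct6b, Dnaja4, Dnajb13, Hspa12a, Hspa12b, Hspb8, Hspb9 and Pdia2) had at most 5 reads in any library. Members were sorted into lists of 25 cytosolic chaperones and cochaperones (21 tested), 9 chaperonin subunits (8 tested) and 17 endoplasmic reticulum (ER) chaperones and folding enzymes (16 tested). Further lists held 8 mitochondrial chaperones (8 tested), 5 stress sensors and transcription factors (5 tested) and 24 other J-domain or associated genes (22 tested). The last list took every member left over, whatever its site, and holds for example Dnajb12, whose protein sits in the ER membrane. The lists named by site therefore do not hold every member of a compartment.

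New proteins fold with the help of chaperones, and each compartment of the cell has its own set. In the cytosol, HSP70 and HSP90 proteins work with J-domain cochaperones, and the transcription factor HSF1 raises many of their mRNAs when unfolded protein builds up. In the ER, the HSP70 protein BiP, the lectin chaperones and the disulfide isomerases fold secreted and membrane proteins, and 3 sensors (IRE1, PERK and ATF6) start the unfolded protein response. The chaperonin TRiC, a ring of different subunits, folds actin, tubulin and other cytosolic proteins. An activated macrophage makes and secretes large amounts of cytokine through the ER.

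The RNA sequencing set held 9 libraries in 3 groups of 3. SUR libraries are labelled suramin, a polyanionic drug; the protocol describes this arm as 200 µM suramin given together with 1 µg/ml lipopolysaccharide for 4 h, so SUR is read here as suramin with lipopolysaccharide, although the sample labels name suramin without it. LPS libraries came from cells given 1 µg/ml lipopolysaccharide (a part of the outer membrane of bacteria, sensed by TLR4) for 4 h, and CON libraries from cells given medium. On this reading no group received suramin alone, and all groups are the same cell line. The study set out to relate suramin to pyroptosis in macrophages stimulated with lipopolysaccharide, and folding genes were not its stated subject.

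Libraries held 15729402 to 16675250 estimated reads. Of 10 macrophage marker genes in the table, 7 were tested and well detected (Cd68, Adgre1, Lyz2, Csf1r, Itgax, Mrc1 and Ptprc), while Marco, Siglecf and Pparg, which mark alveolar macrophages, reached at most 1, 3 and 10 reads in any library. Markers of epithelial, stromal, endothelial and other blood cells reached at most 3 reads. Csf1r, a growth factor receptor, was the 1 macrophage marker called without a block for the replicate number: it rose in LPS against CON (log2 fold change 0.31, adjusted p = 0.00743) and fell in SUR against LPS (-0.23, adjusted p = 0.0326); its part in the results was not tested. With that block 2 of these 7 markers were higher in LPS against CON, against 20.1% of all genes. In SUR against LPS 1 was higher and 3 lower, against 22.6% and 22.7% of all genes. In SUR against CON 1 was lower, against 4.18% of all genes. Replicate numbers are shared by the groups, and same-numbered libraries deviated together, though this does not show that numbers 2 and 3 match between groups. Libraries numbered 1 stood apart: they were the highest of their group, in every group, for 31 of the 80 tested members (38.8%), against 27.7% of all genes tested, and the lowest in every group for 14 members (17.5%), against 25.8%. The test therefore was run without and with the replicate number as a block. Calls are those without the block unless it is named, and for genes described one by one the block's result is given where it adds a call. The labels do not state that libraries of a group came from separate cultures, so every p-value here reflects the spread among these libraries alone, and that spread may be technical.

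Promoters of 72 of the 88 members were in the RefSeq set used (GRCm38.p6, 250 bases before to 50 after each start, 300 in all), and they were read because the members are the textbook targets of stress factors with known binding letters. The ER stress element, CCAAT followed after any 9 bases by CCACG and searched on both strands, was in the window of 6 of the 15 ER members with a window (Calr, Canx, Dnajc3, Hsp90b1, Hspa5 and Pdia6) and of no other member. Over all 27025 genes with a window, 0.137% held it. The sites are shown with 6 bases on each side, read 5′ to 3′ on the strand that carries the motif, with the fixed letters in capitals.
Hspa5 (chr2:34772025-34772043, at -65 from the start): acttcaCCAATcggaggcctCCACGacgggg
Pdia6 (chr12:17266491-17266509, at -98): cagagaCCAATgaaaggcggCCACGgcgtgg
Dnajc3 (chr14:118937827-118937845, at -105): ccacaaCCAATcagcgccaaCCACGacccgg
Canx (chr11:50325800-50325818, at -145): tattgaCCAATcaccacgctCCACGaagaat
Calr (chr8:84847075-84847093, at -162, on the strand opposite to the gene): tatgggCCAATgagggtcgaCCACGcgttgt
Hsp90b1, upstream site (chr10:86705638-86705656, at -212): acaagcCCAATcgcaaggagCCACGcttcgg
Hsp90b1, downstream site (chr10:86705533-86705551, at -107, on the strand opposite to the gene): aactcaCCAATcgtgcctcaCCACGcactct
The coordinates cover the motif without the added bases, and the distance is that of the motif's first base, counted along the gene, from the start.

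A heat shock element of 3 alternating units (GAA, TTC and GAA with any 2 bases between neighbours, on either strand) was in the windows of Dnajb6 and Hsph1 among 22 cytosolic members with a window, and of Hspd1 and Hspe1 among 5 mitochondrial ones. It was in 0.662% of all genes with a window. Hspd1 and Hspe1, the genes of HSP60 and HSP10, lie on opposite strands and overlap at their 5′ ends (chr1:55077833-55088243 and chr1:55088148-55091317). Their matches are the same pair of overlapping sites, of which 1 is shown; they lie upstream of Hspe1 and of 1 of the 2 starts of Hspd1 in the RefSeq set, inside the span of Hspd1, and the window of its other start held no match.
Dnajb6 (chr5:29735852-29735864, at -46): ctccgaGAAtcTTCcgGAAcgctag
Hsph1 (chr5:149636288-149636300, at 15 past the start, on the strand opposite to the gene): tgaggaGAActTTCcaGAAtctgca
Hspe1 with Hspd1 (chr1:55088064-55088076, at -84 from the start of Hspe1): gttctaGAAccTTCcgGAAggcccc
The unfolded protein response element TGACGTGG was in the window of 1 member, Dnajc25 (0.714% of all genes). A match describes letters, not a bound site, and windows without a match say only that these letters are not in that stretch; the windows of Hspa1a, Hspa1b, Dnajb4, Dnajb2 and Dnaja2 held none of the 3 motifs.

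LPS against CON asks how lipopolysaccharide moved these mRNAs. Of 21 tested cytosolic chaperone genes 9 rose, led by the inducible HSP70 genes Hspa1a (9.63-fold) and Hspa1b (9.48-fold), and 12 were not called. In the ER the BiP gene Hspa5 rose 1.65-fold. In the quasi-likelihood test of edgeR, with p adjusted by Benjamini-Hochberg over all 11281 genes (threshold 0.05), 14 members were higher and 3 lower, against a background of 8.98% of all genes called higher and 9.36% called lower (18.3% in either direction). In the cytosolic list 9 were higher and 0 lower, followed by 2 of 16 ER genes higher, 0 of 8 chaperonin genes, 0 of 8 mitochondrial genes, 1 of 5 sensors and factors higher and 1 lower, and 2 of 22 other genes higher and 2 lower. The median log2 fold change was 0.21 in the cytosolic list and 0.12 in the ER list, against -0.01 over all genes tested. In bulk RNA, a change in the number of cells making an mRNA and a change in mRNA per cell cannot be told apart.

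With the replicate block, 34 members were higher and 9 lower, over a background of 20.1% higher and 21.7% lower (41.8% in either direction). The block called 13 of 21 cytosolic genes, 7 of 8 chaperonin genes and 8 of 16 ER genes higher, and 0, 0 and 2 lower. Without any test, 40 members lay higher and 14 lower in LPS than in CON within every replicate number, against 30.2% and 32.9% of all genes, and 21 lay higher and 9 lower with no overlap between groups, against 15.2% and 16.8%. Scaling mattered for small changes, since upper-quartile scaling and the deposited FPKM moved the median of all genes by -0.096 and -0.137 on the log2 scale. Upper-quartile scaling gave 10 members higher and 8 lower, with 6.78% of all genes called higher and 15.1% lower under it. Limma on log2(FPKM + 0.1) gave 10 higher and 11 lower, with 6.02% of all genes higher and 18.2% lower.

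**Figure D1:**
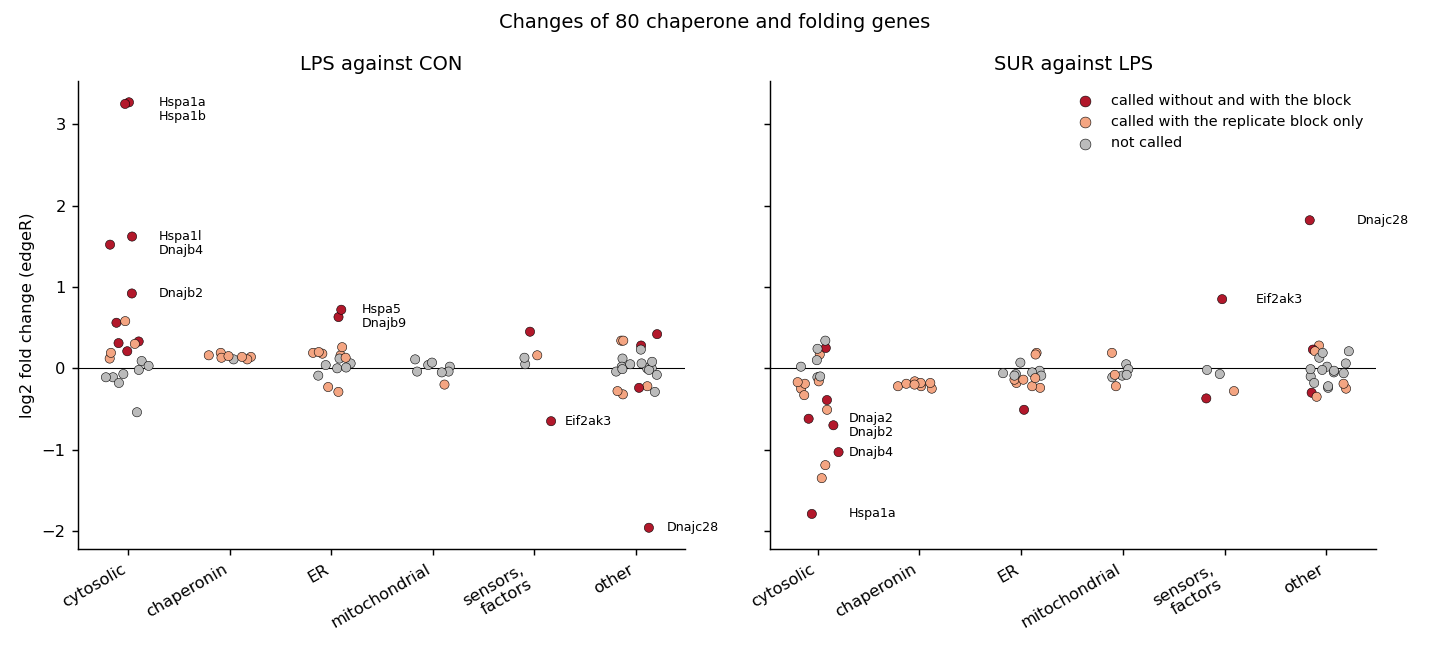
Log2 fold change (edgeR) of the 80 tested genes in each list, for LPS against CON (left) and SUR against LPS (right), which share the LPS libraries. Each point is a gene, coloured by whether it was called without and with the replicate block, with the block only, or not; labels name called genes past 0.6 in size. The cytosolic list reaches 3.27 in LPS against CON and -1.79 in SUR against LPS. The small shifts of the ER and chaperonin lists in LPS against CON, with medians of 0.12 and 0.14 here, have medians of -0.01 and 0.00 on the FPKM scale, where the median of all genes is -0.14 in place of -0.01.

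Hspa1a and Hspa1b encode the stress-inducible cytosolic HSP70, are nearly identical, and lie close together on chromosome 17 (chr17:34969359-34972156 and chr17:34956429-34959238 in RefSeq, GRCm38.p6), so how their reads were split between them is uncertain. Hspa1a stood at 4.78, 9.40 and 10.1 CPM (reads scaled to a common library size) in SUR, 14.2, 34.4 and 35.5 CPM in LPS, and 2.86, 3.71 and 2.14 CPM in CON. Hspa1b stood at 5.76, 12.0 and 18.8 CPM in SUR, 13.6, 36.4 and 43.5 CPM in LPS, and 3.04, 2.56 and 4.23 CPM in CON. Summed over both genes, the level was 20.3 ± 9.20 CPM in SUR, 59.2 ± 27.5 CPM in LPS and 6.18 ± 0.25 CPM in CON (SD, n = 3 each). Every LPS library was above every CON library for each gene, and LPS library 1 lay well below LPS libraries 2 and 3, as SUR library 1 lay below SUR libraries 2 and 3.

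On the log2 scale, Hspa1a rose by 3.27 ± 0.428 (log2 fold change ± SE) in LPS against CON, with adjusted p = 0.000897, and Hspa1b by 3.25 ± 0.539, with adjusted p = 0.00308. Within replicate numbers the difference of Hspa1a was 2.26, 3.17 and 3.98 on the log2 scale. Hspa1a fell by 1.79 in SUR against LPS, with SE 0.389 and adjusted p = 0.0133. That call was lost without LPS library 2 (-1.62, adjusted p = 0.0517) or LPS library 3 (-1.59, adjusted p = 0.0507). Hspa1b had -1.35 in SUR against LPS, not called without the block (adjusted p = 0.0912) and called with it (6.15e-05). Their neighbour Hspa1l, an HSP70 gene known from testis, rose in LPS against CON by 1.62 ± 0.375 (adjusted p = 0.0166), a call lost without LPS library 2 (1.47, adjusted p = 0.0613) or LPS library 3 (1.48, adjusted p = 0.0610). In SUR against LPS Hspa1l had -1.19 (adjusted p = 0.0553 without the block, 8.15e-05 with it). It was also low, at 2.73 ± 0.921 CPM in SUR, 6.25 ± 2.06 CPM in LPS and 2.04 ± 0.723 CPM in CON.

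J-domain cochaperones hand clients to HSP70 and start its ATP cycle. Dnajb4, an HSP40 of the cytosol (chr3:152181580-152210432), stood at 81.6, 66.3 and 62.6 CPM in SUR, 175.2, 130.7 and 124.8 CPM in LPS, and 61.4, 46.1 and 42.6 CPM in CON. Every LPS library was above every SUR and CON library, library 1 was the highest of each group, and SUR and CON did not overlap. Dnajb4 rose by 1.52 ± 0.180 in LPS against CON (2.87-fold, adjusted p = 0.000539) and fell by 1.03 in SUR against LPS (SE 0.177, adjusted p = 0.00461).

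Dnajb2, a cochaperone that binds ubiquitin and passes clients to the proteasome (chr1:75236395-75245692), stood at 44.3, 42.5 and 46.7 CPM in SUR, 73.5, 67.7 and 76.1 CPM in LPS, and 39.4, 34.9 and 40.4 CPM in CON. Dnaja2, another HSP40 partner of HSP70 (chr8:85537633-85555361), stood at 179.5, 167.3 and 165.3 CPM in SUR, 263.2, 268.8 and 256.2 CPM in LPS, and 187.1, 180.7 and 168.2 CPM in CON. For both genes LPS was clear of SUR and CON; SUR and CON overlapped for Dnaja2 and were next to each other without overlap for Dnajb2. Dnajb2 rose by 0.92 ± 0.0793 in LPS against CON (adjusted p = 0.000105) and fell by 0.70 in SUR against LPS (SE 0.0788, adjusted p = 0.000685). Dnaja2 rose by 0.56 ± 0.0640 in LPS against CON (adjusted p = 0.000457) and fell by 0.62 in SUR against LPS (SE 0.0640, adjusted p = 0.000425). The calls of Dnajb4, Dnajb2 and Dnaja2 in both comparisons held in every alternative run.

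The HSP90 genes and Hspa8 were the most abundant cytosolic members per length, Hspa8 at 979.5 ± 88.6 FPKM, Hsp90ab1 at 948.5 ± 62.5 FPKM and Hsp90aa1 at 243.2 ± 25.5 FPKM in CON. Hsp90aa1, the inducible HSP90, stood at 637.7, 544.8 and 565.6 CPM in SUR, 831.1, 708.2 and 758.8 CPM in LPS, and 677.7, 590.3 and 556.3 CPM in CON. LPS libraries lay above the others, by a narrow margin over CON library 1. Hsp90aa1 rose by 0.33 ± 0.0990 in LPS against CON (adjusted p = 0.0475) and fell by 0.39 in SUR against LPS (SE 0.0991, adjusted p = 0.0251). Both calls were lost under upper-quartile scaling, on the FPKM scale and without any of several libraries, where the adjusted p reached 0.169 for LPS against CON and 0.0933 for SUR against LPS.

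Hspa8, the constitutive HSC70, stood at 1409.1, 1787.1 and 1916.4 CPM in SUR, 1873.1, 2126.3 and 2441.2 CPM in LPS, and 1577.1, 1760.2 and 1887.6 CPM in CON. Library 1 was the lowest of each group, and the groups overlapped. Hspa8 had a log2 fold change of 0.30 in LPS against CON, not called without the block (adjusted p = 0.176) and called with it (0.000107), and -0.33 in SUR against LPS (0.133 without the block, 5.11e-05 with it). Hsp90ab1, the constitutive HSP90, had 0.19 (0.0720 without the block, 0.000491 with it) and -0.17 (0.118 and 0.00151). Dnajb1, the main partner of HSP70 in heat shock, averaged 38.3 ± 1.36 CPM in SUR, 41.4 ± 0.236 CPM in LPS and 38.7 ± 2.64 CPM in CON and was called in no comparison, with or without the block (adjusted p = 0.443 in LPS against CON without it). Hsph1, the HSP110 exchange factor, averaged 73.0 ± 15.6 CPM in SUR, 67.8 ± 7.50 CPM in LPS and 73.2 ± 14.0 CPM in CON, with library 1 lowest in each group, and was not called either (adjusted p = 0.789). Of these heat shock genes, Hspa1a, Hspa1b and Hsp90aa1 were called in LPS against CON without the block, and Hspa8, Hsp90ab1, Dnajb1 and Hsph1 were not.

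Of the other cytosolic members, Hspa4l (HSP110 family) and Dnajb6 (a suppressor of aggregation) rose in LPS against CON by 0.31 (adjusted p = 0.0231) and 0.21 (adjusted p = 0.0389). Neither call held under upper-quartile scaling or on the FPKM scale, and leaving out single libraries took the adjusted p to 0.0863 and 0.144. In SUR against LPS Dnajb6 had -0.19 (adjusted p = 0.0589 without the block, 0.00699 with it). Hspa14, an HSP70 relative that sits at the ribosome, rose in SUR against LPS by 0.25 (adjusted p = 0.0282, up to 0.112 with a library left out); it stood at 56.4 ± 2.97 CPM in SUR, 47.5 ± 1.99 CPM in LPS and 49.7 ± 1.28 CPM in CON.

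**Figure D2:**
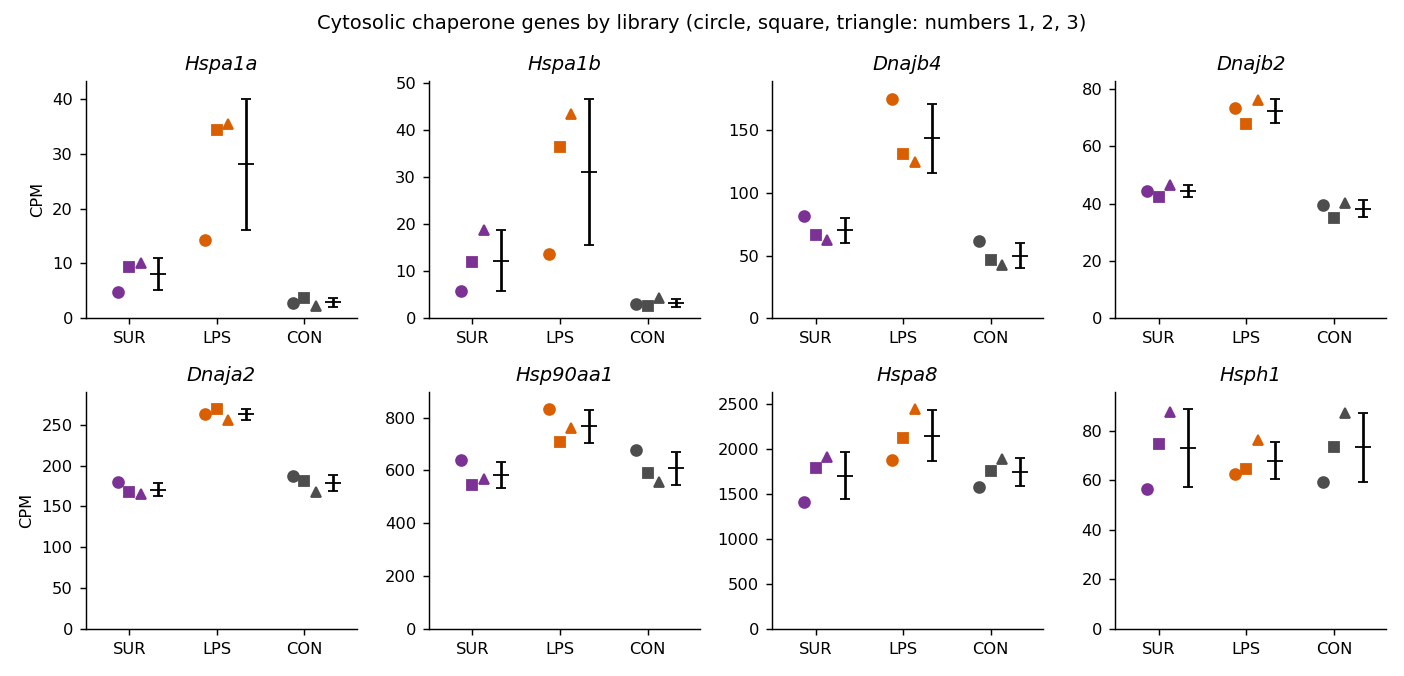
CPM of 8 cytosolic chaperone genes in each library of SUR, LPS and CON, with the mean and SD of 3 libraries beside each group; the vertical axes start at 0. Dnajb4, Dnajb2 and Dnaja2 in LPS are clear of SUR and CON in every library, while Hsph1 overlaps across all groups. Circles (libraries numbered 1) are low for Hspa1a and Hspa1b in SUR and LPS, high for Dnajb4, and low for Hspa8 and Hsph1.

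Hspa5 encodes BiP, the HSP70 of the ER lumen (chr2:34772090-34776529), and was the most abundant member per length, at 1181.8 ± 41.7 FPKM in SUR, 1525.1 ± 81.1 FPKM in LPS and 1020.0 ± 57.5 FPKM in CON (SD, n = 3); in CON it lay within the spread of Hspa8 and Hsp90ab1. In CPM it stood at 2662.1, 2533.5 and 2630.5 in SUR, 3793.6, 3515.3 and 3806.1 in LPS, and 2343.8, 2131.3 and 2276.5 in CON. The groups did not overlap, with LPS highest, SUR between and CON lowest. Hspa5 rose by 0.72 ± 0.0596 in LPS against CON (adjusted p = 8.77e-05) and fell by 0.51 in SUR against LPS (SE 0.0595, adjusted p = 0.000813), and both calls held in every alternative run. In SUR against CON it had 0.21 (1.16-fold), not called without the block (adjusted p = 0.234) and called with it (0.000507).

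Dnajb9, an ER cochaperone of BiP (chr12:44205897-44210068), stood at 35.5, 38.2 and 43.8 CPM in SUR, 41.3, 41.0 and 47.4 CPM in LPS, and 26.7, 25.3 and 31.6 CPM in CON. SUR and LPS overlapped, and both lay above CON in every library. It rose by 0.63 ± 0.114 in LPS against CON (adjusted p = 0.00461). Between SUR and LPS it had -0.14, not called without the block (adjusted p = 0.462) and called with it (0.0405), and in SUR against CON 0.49 (0.138 without the block, 0.000530 with it). Whether Dnajb9 and Hspa5 differed in how they moved in SUR against LPS was not tested.

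The rest of the ER list moved little. Hsp90b1 (the ER HSP90, GRP94), Calr and Canx (the lectin chaperones calreticulin and calnexin) and Hyou1 (an HSP110 relative that recharges BiP) had log2 fold changes of 0.18, 0.16, 0.04 and 0.20 in LPS against CON, all uncalled without the block. With the block Hsp90b1 (adjusted p = 0.00112), Calr (0.00296) and Hyou1 (0.00724) were called higher, and Canx was not (0.449). On the FPKM scale the same 4 genes had 0.04, 0.02, -0.10 and 0.07, where the median of all genes was -0.14, so all of them, Canx included, lay above that median. Between SUR and LPS, Hsp90b1 had -0.14 (adjusted p = 0.319 without the block, 0.00611 with it) and Hyou1 had -0.22 (0.303 and 0.00527). Calr stood at 931.9, 1000.0 and 1088.9 CPM in SUR, 1005.7, 1020.8 and 1146.6 CPM in LPS, and 913.2, 898.3 and 1032.3 CPM in CON, so the groups overlapped while each LPS library was above the CON library of its number. Over the list of 16, 8 genes were higher and 2 lower with the block in LPS against CON, where the block called 20.1% of all genes higher and 21.7% lower. In SUR against LPS 2 were higher and 7 lower, against 22.6% and 22.7% of all genes.

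The 2 ER genes called lower with the block in LPS against CON were Pdia4, a disulfide isomerase, and Sdf2l1, a partner of ER J-domain proteins. Pdia4 stood at 176.1, 227.3 and 258.2 CPM in SUR, 153.6, 188.5 and 236.0 CPM in LPS, and 193.8, 220.0 and 292.8 CPM in CON. Libraries of a group differed by more than the group means did, and within each number LPS was the lowest. Its log2 fold change was -0.29 in LPS against CON (adjusted p = 0.435 without the block, 0.000528 with it) and 0.19 in SUR against LPS (0.611 and 0.00566). Sdf2l1 had -0.23 (0.331 and 0.00512) and 0.17 (0.478 and 0.0238). Both signs were the same under upper-quartile scaling and on the FPKM scale.

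The 6 genes with an ER stress element were not all called in LPS against CON. Their log2 fold changes were 0.72 in Hspa5, 0.18 in Hsp90b1, 0.16 in Calr, 0.13 in Pdia6, 0.04 in Canx and 0.00 in Dnajc3, the gene of an ER cochaperone that restrains eIF2α kinases. Without the block Hspa5 alone among them was called, where 8.98% of all genes were called higher. With it Hsp90b1, Calr and Pdia6 (adjusted p = 0.267 without the block, 0.0137 with it) were called too. The block called 20.1% of all genes higher. Pdia6 had -0.12 in SUR against LPS (0.290 and 0.0201). On the FPKM scale Canx and Dnajc3 had -0.10 and -0.13 in LPS against CON, next to a median of -0.14 over all genes. Dnajb9, called higher, had no such element in its window, nor did Pdia4 and Sdf2l1.

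**Figure D3:**
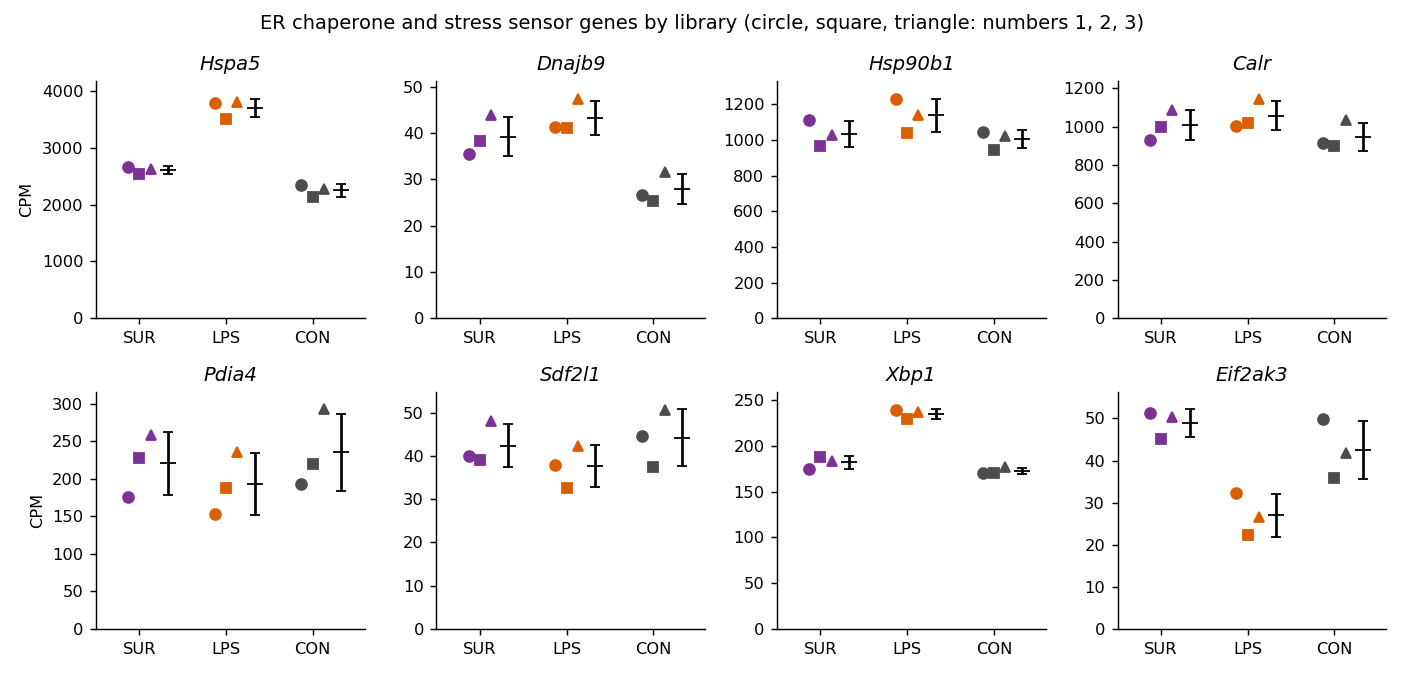
CPM of 6 ER chaperone genes and of Xbp1 and Eif2ak3 in each library of SUR, LPS and CON, with the mean and SD of 3 libraries beside each group; the vertical axes start at 0. Hspa5 and Xbp1 are highest in every LPS library and Eif2ak3 lowest. Calr, Pdia4 and Sdf2l1 overlap between groups and spread by replicate number.

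Among stress sensors and factors, Xbp1 and Eif2ak3 were called in opposite directions. Xbp1 encodes the transcription factor that IRE1 activates by splicing its mRNA, and gene counts do not separate spliced from unspliced mRNA. It stood at 174.6, 188.2 and 183.9 CPM in SUR, 238.8, 229.3 and 237.0 CPM in LPS, and 170.2, 170.9 and 176.7 CPM in CON (chr11:5520641-5525993). LPS was clear of both other groups, which overlapped. Xbp1 rose by 0.45 ± 0.0556 in LPS against CON (adjusted p = 0.000693) and fell by 0.37 in SUR against LPS (SE 0.0555, adjusted p = 0.00253), calls that held in every alternative run.

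Eif2ak3 encodes PERK, the ER sensor kinase that phosphorylates eIF2α and slows translation (chr6:70844484-70905241). It stood at 51.2, 45.1 and 50.3 CPM in SUR, 32.4, 22.2 and 26.5 CPM in LPS, and 49.8, 35.9 and 41.9 CPM in CON. Every LPS library was below every library of the other groups. Eif2ak3 fell by 0.65 in LPS against CON (SE 0.155, adjusted p = 0.0184) and rose by 0.85 ± 0.155 in SUR against LPS (1.81-fold, adjusted p = 0.00585). The fall was lost without CON library 3 (-0.66, adjusted p = 0.0534), LPS library 2 (-0.53, adjusted p = 0.0626) or LPS library 3 (-0.64, adjusted p = 0.0658). The rise held in every alternative run.

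Ern1, the gene of IRE1α, averaged 64.8 ± 18.1 CPM in SUR, 67.9 ± 28.5 CPM in LPS and 62.2 ± 18.2 CPM in CON, and Atf6 averaged 302.6 ± 55.3 CPM in SUR, 307.5 ± 48.1 CPM in LPS and 296.6 ± 53.8 CPM in CON. Both were highest in library 1 of each group, and neither was called in any comparison, with or without the block. Hsf1, the heat shock factor gene, averaged 29.2 ± 2.58 CPM in SUR, 35.4 ± 4.08 CPM in LPS and 31.7 ± 4.10 CPM in CON. It had 0.16 in LPS against CON (adjusted p = 0.472 without the block, 0.0371 with it) and -0.28 in SUR against LPS (0.161 and 0.00195). An mRNA level says nothing of whether HSF1, ATF6, IRE1 or PERK proteins were active.

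The chaperonin subunit genes had the narrowest range of fold changes of the 6 lists. In LPS against CON all 8 tested genes were above 0, at 0.11 to 0.19 on the log2 scale, against a median of -0.01 over all genes. On the FPKM scale, where the median of all genes was -0.14, the range was -0.04 to 0.06 with 4 of 8 above 0, so all 8 stayed above that median. In SUR against LPS all 8 were below 0, at -0.25 to -0.16, and also under upper-quartile scaling and on the FPKM scale (-0.10 to -0.02, with a median of 0.13 over all genes). None was called without the block in either comparison. With it 7 were called higher in LPS against CON, against 20.1% of all genes. In SUR against LPS 8 were called lower with it, against 22.7% of all genes. Tcp1, subunit alpha, stood at 423.5, 368.1 and 367.1 CPM in SUR, 495.8, 423.7 and 409.1 CPM in LPS, and 419.8, 394.9 and 375.3 CPM in CON. Within each number LPS was above SUR and CON, although the groups overlapped. Tcp1 had 0.16 in LPS against CON (adjusted p = 0.327 without the block, 0.0105 with it) and -0.20 in SUR against LPS (0.202 and 0.00274).

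Levels of these subunits also differed by replicate number. All 8 were highest in library 1 of every group, and 4 of the 5 sensors and factors (Atf6, Eif2ak3, Ern1 and Hsf1) were too. Cct7, the subunit with the widest spread, stood at 383.3, 270.8 and 264.4 CPM in SUR, 431.0, 321.8 and 292.8 CPM in LPS, and 399.7, 274.0 and 269.9 CPM in CON. Its standard error without the block was 0.214, above its log2 fold changes of 0.15 in LPS against CON and -0.19 in SUR against LPS, which were called with the block (adjusted p = 0.0108 and 0.00319).

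**Figure D4:**
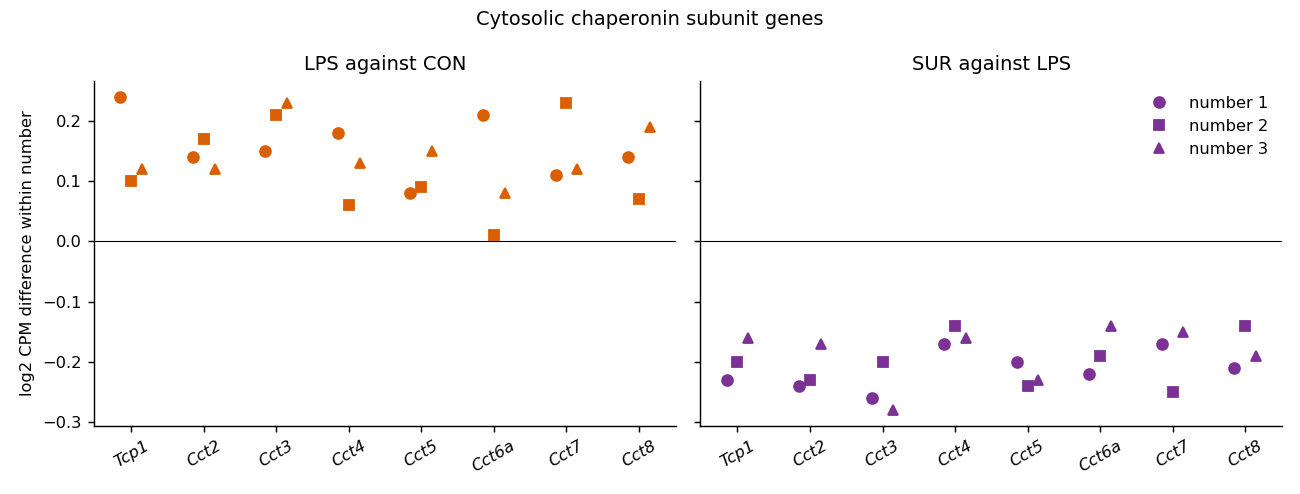
Difference in log2 CPM within each replicate number for 8 cytosolic chaperonin subunit genes, LPS against CON (left) and SUR against LPS (right), which share the LPS libraries. All points lie above 0 at left and below 0 at right. On the FPKM scale 4 of the 8 genes are above 0 in LPS against CON and none in SUR against LPS, with medians of -0.14 and 0.13 over all genes.

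Mitochondrial chaperones were called in neither LPS against CON nor SUR against LPS without the block. Hspd1, the gene of HSP60, averaged 1334.3 ± 59.1 CPM in SUR, 1342.5 ± 64.5 CPM in LPS and 1376.4 ± 58.2 CPM in CON (adjusted p = 0.803 in LPS against CON and 0.955 in SUR against LPS). Its log2 fold change in LPS against CON was -0.04, and -0.17 on the FPKM scale, where the median of all genes was -0.14. The list's median in LPS against CON was -0.01, against -0.01 over all genes. With the block 1 of 8 genes was lower in LPS against CON, against 21.7% of all genes (Dnaja3, a mitochondrial HSP40, -0.20, adjusted p = 0.0021). In SUR against LPS the block called 1 higher (Dnaja3, 0.19, adjusted p = 0.00259) and 2 lower. Those 2 were Dnajc15 (-0.22, adjusted p = 0.0129) and the mitochondrial HSP70 gene Hspa9 (-0.08, adjusted p = 0.0450). Of all genes the block called 22.6% higher and 22.7% lower there.

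Of the other J-domain genes, Dnajb12, which sits in the ER membrane and faces the cytosol, rose by 0.28 in LPS against CON (adjusted p = 0.0210) and fell by 0.30 in SUR against LPS (adjusted p = 0.0175). On the FPKM scale neither was called, and leaving out a library took the adjusted p up to 0.0879 and 0.0699. Dnajc27, which joins a J domain to a Rab-like GTPase, rose by 0.42 in LPS against CON (adjusted p = 0.00544) in every alternative run; in SUR against LPS it had -0.25, not called without the block (0.0552) and called with it (0.00263).

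Dnajc28 stood at 1.79, 3.02 and 2.92 CPM in SUR, 0.571, 0.613 and 0.990 CPM in LPS, and 1.69, 3.17 and 3.69 CPM in CON. It was a low mRNA, with every LPS library below all others. It fell by 1.96 in LPS against CON (SE 0.385, adjusted p = 0.00719) and rose by 1.82 ± 0.387 in SUR against LPS (adjusted p = 0.0122), the rise being lost without LPS library 2 (1.72, adjusted p = 0.0525) or SUR library 2 (1.68, adjusted p = 0.0501). Dnajc16 fell by 0.24 in LPS against CON (adjusted p = 0.0354) and rose by 0.23 in SUR against LPS (adjusted p = 0.0468); neither call held without the libraries numbered 1 (0.140 and 0.0932) or with no filter on low counts.

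SUR against LPS asks what suramin did on top of lipopolysaccharide. Of 21 tested cytosolic chaperone genes 5 fell, among them Hspa1a to 0.288 of its LPS level, Dnajb4 to 0.489, Dnajb2 to 0.614 and Dnaja2 to 0.650; 1 rose and 15 were not called. Hspa5 and Xbp1 fell to 0.704 and 0.775 of their LPS levels. Of the 80 tested members 8 were lower and 4 higher, against a background of 7.93% of all genes lower and 9.29% higher (17.2% in either direction). The cytosolic list had 5 lower and 1 higher of 21, the ER list 1 lower of 16, sensors and factors 1 lower and 1 higher of 5, and the other J-domain genes 1 lower and 2 higher of 22. SUR against LPS and LPS against CON share the LPS libraries, so a gene's values in the pair of comparisons are not independent.

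With the block 36 members were lower and 10 higher in SUR against LPS, over a background of 22.7% lower and 22.6% higher (45.3% in either direction). Within every replicate number 48 members lay lower and 15 higher, against 35.6% and 33.7% of all genes, and 26 lay lower and 7 higher with no overlap between groups, against 17.2% and 17.8%. Upper-quartile scaling gave 7 lower and 6 higher, with 5.46% of all genes lower and 14.1% higher under it. The FPKM scale gave 6 lower and 10 higher, with 4.48% of all genes lower and 17.5% higher. The median log2 fold change over the 80 members was -0.11, against -0.01 over all genes; on the FPKM scale it was 0.02, against 0.13 over all genes. In DESeq2 15 members were lower and 6 higher, against 10.1% and 10.5% of all genes.

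SUR against CON asks where suramin with lipopolysaccharide left these genes relative to untreated cells. No member was called by edgeR without the block, against a background of 0.390% of all genes higher and 0.0355% lower (0.425% in either direction). An unadjusted p under 0.05 was seen for 1041 of all 11281 genes and for 8 of the 80 tested members. With the block 7 were higher and 0 lower, over a background of 7.37% and 4.18% (11.5% in either direction): Hspa1b (log2 fold change 1.89), Hspa1a (1.47), Dnajb9 (0.49), Dnajb4 (0.49), Dnajb2 (0.22), Hspa5 (0.21) and Hspa4l (0.21). Their adjusted p with the block ran from 0.000167 in Dnajb4 to 0.0466 in Hspa4l, and without it from 0.138 in Dnajb9 to 0.418 in Hspa4l. DESeq2 called 4 higher and 0 lower, against 2.00% and 0.302% of all genes, and limma-voom 0. All 7 genes lay higher in every SUR library than in any CON library, as did 9 members in all and 8.35% of all genes tested; 2 members lay lower without overlap, against 6.67%. Within every replicate number 17 members lay higher and 16 lower, against 23.2% and 25.4% of all genes. The median over the 80 members was -0.02, against -0.01 over all genes.

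Cytosolic and ER chaperones were then compared within replicate numbers, as the mean log2 CPM of the 16 tested ER genes minus that of the 21 tested cytosolic genes in each library. The difference was 2.08, 1.97 and 2.05 in SUR, 1.81, 1.69 and 1.77 in LPS, and 2.17, 2.14 and 2.27 in CON, for numbers 1, 2 and 3. LPS libraries were lowest and CON libraries highest, with no overlap between groups. In LPS against CON the difference changed by -0.36, -0.46 and -0.50 in the 3 numbers (mean -0.44 ± 0.0716, SD, n = 3), made of a cytosolic mean higher by 0.47, 0.60 and 0.64 and an ER mean higher by 0.11, 0.14 and 0.14. The change was 0.27, 0.28 and 0.28 in SUR against LPS, and in SUR against CON by -0.09, -0.17 and -0.22. No p is given for these means, since the members were chosen with earlier results of these data known.

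The size of that shift depended on the Hspa1 genes. Without Hspa1a, Hspa1b and Hspa1l, a choice made after their values were seen, the cytosolic mean was higher in LPS than in CON by 0.22, 0.23 and 0.25, and the difference changed by -0.11, -0.09 and -0.11 (mean -0.10). The difference then lay at 1.49 to 1.64 in SUR, 1.36 to 1.52 in LPS and 1.47 to 1.63 in CON, so the groups overlapped, while LPS was still the lowest within each number. The mean change in SUR against LPS was 0.10 without them, against 0.28 with them, and in SUR against CON it was 0.0018, against -0.16. Medians over members of the change within each number, which no single gene decides, were also taken. In LPS against CON the ER median minus the cytosolic one was -0.06, -0.06 and -0.20 in numbers 1, 2 and 3 (mean -0.10). In SUR against LPS it was 0.11, 0.12 and 0.17 (mean 0.13). On the FPKM scale the full lists gave -0.43 and 0.28; the cytosolic mean was still higher in LPS than in CON there, by 0.33, 0.46 and 0.48, and the ER mean was at -0.01, 0.01 and -0.01.

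**Figure D5:**
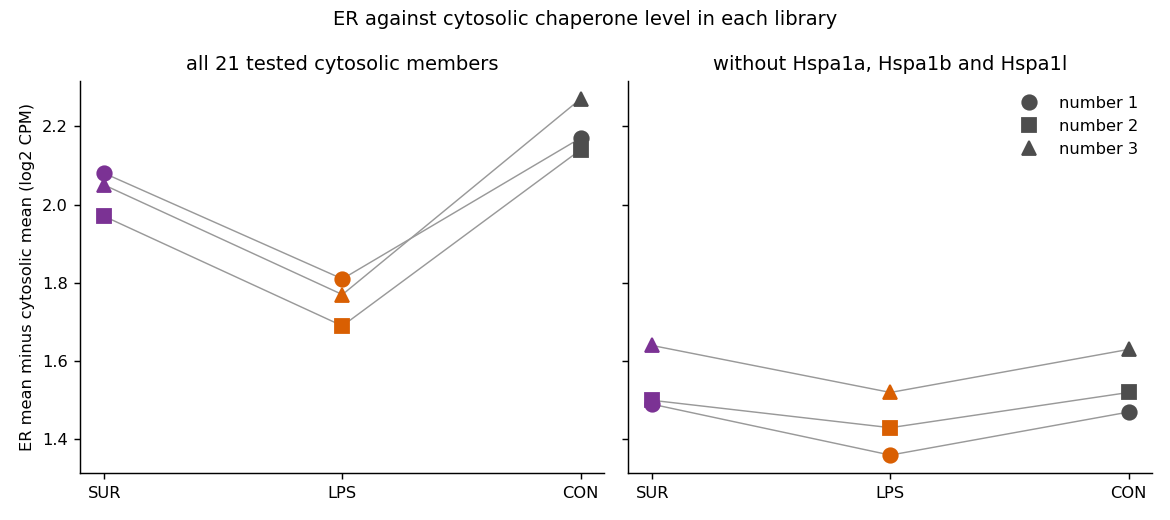
Mean log2 CPM of ER chaperone genes minus that of cytosolic chaperone genes in each library of SUR, LPS and CON, with lines joining libraries of the same number. The left panel uses all 21 tested cytosolic genes and the right panel leaves out Hspa1a, Hspa1b and Hspa1l. LPS libraries lie at 1.69 to 1.81 at left, below SUR and CON; at right LPS libraries lie at 1.36 to 1.52 and overlap SUR and CON, and the mean change in LPS against CON is -0.10.

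Partners of these chaperones that were not among the members were read from lists of the same pathways. Of 18 tested HSF1 targets and HSP70 or HSP90 partners, 1 was higher and 1 lower in LPS against CON, against 8.98% and 9.36% of all genes. In SUR against LPS 1 was higher and 3 were lower, against 9.29% and 7.93% of all genes. With the block 4 were higher and 4 lower in LPS against CON, near the shares of all genes (20.1% and 21.7%). In SUR against LPS the block called 4 higher and 7 lower, against 22.6% and 22.7% of all genes. Stip1, which bridges HSP70 to HSP90, stood at 123.4, 112.4 and 118.3 CPM in SUR, 188.0, 176.2 and 194.3 CPM in LPS, and 139.2, 114.3 and 121.3 CPM in CON. LPS was clear of both other groups, which overlapped. Stip1 rose by 0.58 ± 0.0837 in LPS against CON (adjusted p = 0.00155) and fell by 0.66 in SUR against LPS (SE 0.0838, adjusted p = 0.00115), in every alternative run. Hsbp1, which binds HSF1 and restrains it, fell by 0.37 in LPS against CON (adjusted p = 0.00669); it had 0.16 in SUR against LPS (0.180 without the block, 0.0272 with it) and -0.21 in SUR against CON (0.342 and 0.0194). In SUR against LPS the HSP90 cochaperones Ptges3 and Chordc1 fell by 0.33 (adjusted p = 0.0439) and 0.27 (adjusted p = 0.0415); both calls were lost when any of several single libraries was left out, with adjusted p up to 0.154 and 0.123. The block added calls of Ptges3 in LPS against CON (0.23, adjusted p = 0.143 without it and 0.000416 with it) and of Chordc1 in SUR against CON (-0.17, 0.549 and 0.0357).

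Of 29 other ER folding and degradation genes, 2 were higher and 1 lower in LPS against CON, against 8.98% and 9.36% of all genes. With the block 9 were higher and 4 lower in LPS against CON, against 20.1% and 21.7% of all genes. In SUR against LPS the block called 3 higher and 10 lower, against 22.6% and 22.7% of all genes. Herpud1, part of the machinery that sends ER proteins to the proteasome, stood at 70.0, 84.9 and 106.9 CPM in SUR, 94.9, 109.0 and 143.8 CPM in LPS, and 57.3, 45.8 and 68.7 CPM in CON. It rose by 1.02 ± 0.210 in LPS against CON (2.02-fold, adjusted p = 0.00949). Between SUR and LPS it had -0.41 (adjusted p = 0.230 without the block, 0.00259 with it), and in SUR against CON 0.61 (0.359 and 0.00210). Syvn1, the ER ubiquitin ligase HRD1, rose by 0.37 in LPS against CON (adjusted p = 0.0474), a call lost without any 1 of 7 libraries (adjusted p up to 0.157) and on the FPKM scale. Between SUR and LPS it had -0.27 (0.138 without the block, 0.00167 with it).

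Ddit3, which encodes CHOP, a factor induced downstream of PERK, stood at 17.2, 15.0 and 15.4 CPM in SUR, 12.1, 9.12 and 9.17 CPM in LPS, and 20.7, 19.6 and 18.2 CPM in CON. The groups did not overlap. Ddit3 fell by 0.94 in LPS against CON (SE 0.129, adjusted p = 0.00111) and rose by 0.65 ± 0.129 in SUR against LPS (adjusted p = 0.00923). It was the 1 gene of this list called in SUR against LPS without the block, and in SUR against CON it had -0.30 (0.513 without the block, 0.0348 with it). Of 9 prefoldin and chaperonin partners, none was called in LPS against CON. An unadjusted p under 0.05 was seen there for 1 of them and for 3297 of all 11281 genes. Txndc9, which binds the chaperonin, fell by 0.28 in SUR against LPS (adjusted p = 0.0354, up to 0.121 with a library left out, and not called on the FPKM scale). Txndc9 had 0.19 in LPS against CON (0.131 without the block, 0.0114 with it). The block called 1 gene of this list higher there, against 20.1% of all genes. It called 3 lower in SUR against LPS, against 22.7% of all genes.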

How the data were processed

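RNA was sequenced from 9 libraries of MH-S cells, 3 each of SUR, LPS and CON; the labels name total RNA and an MGIEasy kit. The submitters' processing notes list HISAT2 2.0.4 and the build GRCm38 (mm10), and neither the read counter nor its annotation is given in the sources used here. Expected counts, as deposited, are the authors' estimated reads for each gene with no normalization; 93.4% were whole (no remainder), and all were rounded. The FPKM values deposited by the authors are scaled for length and depth. Their deposited TPM values (sums 999999 to 1000001) served as a check of the table only. Columns of log2 fold change and q-value (adjusted p-value) by the authors, named in the file headers, were left unused.

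Filtering used filterByExpr and scaling TMM (factors 0.934 to 1.043). The test was the quasi-likelihood F test of edgeR 4.0.16 in R 4.3.3, with 1 fit of all 9 libraries, a mean per group and Benjamini-Hochberg adjustment over 11281 genes at 0.05. CPM are TMM-scaled counts; log2 CPM for the list means uses a prior count of 2. Standard errors come from the F statistic. Precision is set by 3 libraries per group at the depths given. The fit was tested on simulated counts.

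Alternatives were DESeq2 1.42.0, upper-quartile scaling, no filter, at least 1 CPM in 3 libraries, limma-voom (limma 3.58.1), the replicate block, 2 groups only, each library left out, no libraries numbered 1, and limma on log2(FPKM + 0.1), whose fold changes understate low genes. Replicate numbers come from the sample titles. Same-numbered libraries' deviations from their group means correlated at 0.435 to 0.801 over 11281 genes. Deviations within a group cancel out, and libraries numbered 1 stood apart in every group. Correlations between libraries of unlike number were not computed. The values therefore cannot show that numbers 2 and 3 pair the libraries.

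Members and lists were chosen with earlier results of these data known. Named always were 20 members (Hsf1, Xbp1, Atf6, Ern1, Eif2ak3, Hspa1a, Hspa1b, Hspa8, Hsph1, Hsp90aa1, Hsp90ab1, Dnajb1, Hspa5, Hsp90b1, Hyou1, Calr, Canx, Sdf2l1, Tcp1 and Hspd1), with up to 4 called members per list and direction in each comparison and up to 3 from each list of non-members; others named were singled out after their values were seen, and 1 gene that the rule names among non-members is not reported here. Positions off the primary chromosomes are given in the table for Hspa1a, Hspa1b, Hspa1l and Hspa4l. Python 3.11.15 and matplotlib 3.10.9 drew the figures.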

Additional observations from a re-analysis of the deposited data

How the results depend on the processing

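With the replicate block, members called numbered 34 higher and 9 lower in LPS against CON, 10 and 36 in SUR against LPS, and 7 higher in SUR against CON; the calls it added for genes described one by one stand beside their results, and it ended no call that members or the listed partner genes had without it. Without the libraries numbered 1 the counts were 22 and 5, 7 and 26, and 5 higher. DESeq2 gave 15 lower in SUR against LPS and 4 higher in SUR against CON, upper-quartile scaling 8 lower in LPS against CON, the FPKM scale 11 lower in LPS against CON and 10 higher in SUR against LPS, and no filter 2 higher in SUR against LPS. With single libraries left out, LPS against CON ran from 9 to 16 higher and 1 to 3 lower (9 without LPS 3; 1 without CON 3 or LPS 2), and SUR against LPS from 1 to 4 higher and 5 to 10 lower (1 higher without LPS 2 or SUR 2, 2 without LPS 3 or SUR 3; 5 lower without LPS 3). For the runs with libraries left out and the run with no filter, the share of all genes called is not given. Those counts therefore cannot be read as a result about the members. The cause of these shifts was not tested.

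The change in ER minus cytosolic mean was -0.10, 0.13 and -0.02 by the median over members in LPS against CON, SUR against LPS and SUR against CON; -0.32, 0.23 and -0.09 with chaperonin subunits added; and -0.10, 0.10 and 0.0018 without Hspa1a, Hspa1b and Hspa1l, the last of which reversed the sign. With members of at least 1 CPM it was 0.29 in SUR against LPS. Over all genes the naming rule picks, the alternatives kept 575 calls and lost 109, left 1351 uncalled values uncalled and made 71 calls; no called value changed sign.

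Limits: 3 libraries per group, replicate numbers that move many members, reads that the near-identical Hspa1a and Hspa1b share, and low levels of Dnajc28 and Hspa1l.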
